A study of Homo sapiens with 9 samples.

Results

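Antisense long noncoding RNA genes are transcribed from the strand opposite a named, usually protein-coding gene, and human gene nomenclature marks them with the ending -AS1 after that gene's symbol. Some start close to the promoter of the sense gene and run away from it, and others start inside or beyond it and run back across it. Individual members are known to act on transcription or stability of the sense RNA, to bind proteins or microRNAs, or to have no known function, and many such transcripts are kept at low levels by nuclear RNA decay.

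The set described here comprised 339 probe sets of 285 genes. Members were chosen by signal: a probe set was a member when it was annotated to exactly 1 gene symbol ending in -AS1 and its signal lay above the median of its array on at least 3 of the 9 arrays. Of 968 probe sets for 706 such genes on the array, 35% met this rule, against 53.4% of all 54613 probe sets, so that most antisense probe sets were too dim to be members. The level of signal chose the members, and no difference between groups entered the rule. However, 4 members lay above the median in SCP51 alone, namely 3 probe sets of CCDC144NL-AS1 and 1 of SOX9-AS1, and these had to differ to be members. A RefSeq table gave 335 of the 339 probe sets a long noncoding or antisense RNA, and 4 probe sets had no matching RefSeq entry. Just inside the threshold were TNFRSF14-AS1 and FZD10-AS1, whose third-highest signals were 1.0037 and 1.0061 times the array median. Just outside were PAN3-AS1 and HPS1-AS1, at 0.99749 and 0.99668 times.

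Total RNA was measured on Affymetrix oligonucleotide arrays in 3 groups of 3 arrays, labelled as biological replicates. SCP51 and SCP58 are lines each grown from 1 cell of SW480/EGFP, and SW480/EGFP is the human colorectal carcinoma cell line SW480 carrying EGFP. By their labels SCP51 has high and SCP58 low metastatic potential after orthotopic implantation in mice. All RNA came from cultured cells grown in the same medium. Each metastatic class is therefore 1 clone, and every difference below is a difference between lines. The labels do not say whether replicates were separate cultures, so p-values measure only the spread between these arrays.

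Array medians lay between 41.2 and 44.3 signal units. SCP51 replicate 1 stood apart. Over the 339 members its log2 signals correlated with those of the other arrays at 0.522 to 0.698, against 0.674 to 0.93 among the other arrays. The median SD of a member within SCP51 was 0.199 on the log2 scale (0.158 when this array was dropped), against 0.175 in SCP58 and 0.14 in SW480/EGFP. It was the lowest SCP51 array for 125 members and the highest for 105. Of 10 markers of colorectal epithelium 9 passed the filter, with EPCAM at 2554 to 3184 and KRT20 below the median on every array. Among markers of other cell types 1 of 4 for leukocytes, 2 of 3 for endothelium and 2 of 5 for fibroblasts passed it. CD3E (71.9 to 90.8), VWF (61.7 to 88.2) and COL1A1 (126 to 172) were above the median on all 9 arrays, while PTPRC, CD14, LYZ and CDH5 were under it on all 9. The part of such signal in any result was not tested.

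SCP51 differed from SCP58 in 10 antisense probe sets of 8 genes. CCDC144NL-AS1 (3 probe sets), PAX8-AS1 and SOX9-AS1 were higher in SCP51, and OTUD6B-AS1, ZBTB20-AS1, PRKAG2-AS1, DHRS4-AS1 and CKMT2-AS1 were lower. A probe set was called when its limma p stayed under 0.05 after Benjamini-Hochberg adjustment across the 29166 probe sets kept by the filter. The 10 of 339 called are 2.95%, and 3.35% of all probe sets tested were called. The count holds the 3 probe sets of CCDC144NL-AS1 and the 1 of SOX9-AS1, which had to differ to be members and support nothing. Among the other 335 members 6 were called (1.79%), 1 higher and 5 lower, while the share of all probe sets was not trimmed in this way. Of the members 5 were higher and 5 lower, against 1.52% and 1.83% of all probe sets. The median log2 difference was -0.0546 over the members and -0.0729 over all probe sets (0.00918 and -0.00916 after centring on the 75th percentile), and 283 of 339 members (83.5%) differed by less than 0.5. At least 2-fold apart were 12 members, against 4% of all probe sets. Each array held RNA from many cells, so fewer cells with a transcript cannot be told apart from less of it per cell. The count moved with the arrays used. It was 16 without SCP51 replicate 1 (with 6.78% of all probe sets called), 6 without SCP51 replicate 2 (1.05%), 5 without SCP58 replicate 2 (0.614%) and 6 without SCP58 replicate 3 (0.885%).

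Start regions of 4 of the called genes are shown as examples of genes with a call between SCP51 and SCP58 and a window in the RefSeq table of GRCh38.p14, which covers 250 bases before to 50 bases after a gene's annotated start. Capitals mark 2 of the motifs searched on both strands. The first has the letters GGGCGG and is known as the GC box, with the reverse complement CCGCCC where it lies on the other strand. The second has the letters CCAAT and is known to be bound by the factor NF-Y, with the reverse complement ATTGG on the other strand. PAX8-AS1 is at chr2:113235277-113235576 on the plus strand, ZBTB20-AS1 at chr3:114351561-114351860 on the plus strand, PRKAG2-AS1 at chr7:151876792-151877091 on the plus strand and CKMT2-AS1 at chr5:81301520-81301819 on the minus strand.
PAX8-AS1: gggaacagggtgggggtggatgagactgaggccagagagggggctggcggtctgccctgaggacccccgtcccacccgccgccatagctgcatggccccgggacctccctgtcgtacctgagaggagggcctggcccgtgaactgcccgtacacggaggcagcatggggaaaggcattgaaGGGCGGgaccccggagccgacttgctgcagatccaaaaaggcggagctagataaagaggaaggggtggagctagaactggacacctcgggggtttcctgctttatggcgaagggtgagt
ZBTB20-AS1: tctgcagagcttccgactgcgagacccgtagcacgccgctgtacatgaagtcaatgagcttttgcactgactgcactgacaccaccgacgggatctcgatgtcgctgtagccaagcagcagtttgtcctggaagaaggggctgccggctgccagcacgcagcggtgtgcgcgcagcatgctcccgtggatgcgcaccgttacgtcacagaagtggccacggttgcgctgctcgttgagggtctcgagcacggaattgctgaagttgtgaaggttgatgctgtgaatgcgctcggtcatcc
PRKAG2-AS1: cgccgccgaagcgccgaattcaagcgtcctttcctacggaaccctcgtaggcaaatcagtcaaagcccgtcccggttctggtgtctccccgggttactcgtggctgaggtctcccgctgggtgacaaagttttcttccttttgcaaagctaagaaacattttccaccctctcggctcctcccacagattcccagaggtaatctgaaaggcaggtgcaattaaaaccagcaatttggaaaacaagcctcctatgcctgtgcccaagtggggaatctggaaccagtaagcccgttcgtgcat
CKMT2-AS1: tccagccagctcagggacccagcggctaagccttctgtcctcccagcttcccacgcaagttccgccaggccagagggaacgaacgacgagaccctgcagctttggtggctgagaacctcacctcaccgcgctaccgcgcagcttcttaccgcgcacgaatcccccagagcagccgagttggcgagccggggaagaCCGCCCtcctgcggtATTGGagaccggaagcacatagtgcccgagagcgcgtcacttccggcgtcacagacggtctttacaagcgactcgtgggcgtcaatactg
This first of 2 PAX8-AS1 windows held 1 GC box, the CKMT2-AS1 window held 1 GC box and 1 NF-Y motif, and the other 2 held neither. No window of the 4 held the letters TATAAA of the core promoter element of that name, or the letters TGANTCA of the motif bound by Jun and Fos. Among all antisense members, 215 of 285 genes matched the table, with 259 windows. The GC box was in 56.8% of them, against 45% of all 35116 windows, and the core promoter element in 3.86%, against 11.5%. The NF-Y motif was in 29.3%, against 34.6%, and the Jun and Fos motif in 5.79%, against 7.71%. The median window held 23 CpG dinucleotides among the members and 14 among all genes. The second PAX8-AS1 window held none of the 4 motifs, and the window of SOX9-AS1, which is not printed, held 1 NF-Y motif. These matches describe the letters of the windows only.

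CCDC144NL-AS1, on chromosome 17, overlaps the transcribed pseudogene CCDC144NL and differed most of all members. Its brightest probe set read 236, 171 and 192 on the SCP51 arrays, against 12.7, 14.1 and 13.8 on the SCP58 arrays and 12.4, 16.2 and 16.2 on the SW480/EGFP arrays. The SCP51 values lay far above both other groups, which overlapped each other and were below the array median. The log2 difference was 3.87 ± 0.17 from SCP58 and 3.74 ± 0.17 from SW480/EGFP (SE, n = 3 per group). Since this probe set had to be high in SCP51 to pass the filter, its p is taken from the fit without a filter, where limma adjusted p was 9.65e-05 and 2.72e-05 for the same comparisons. The low groups were under the median, so these differences depend on how background was treated. With 32 added to every signal before log2 the difference from SCP58 was 2.34.

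The other probe sets of CCDC144NL-AS1 gave the same picture. The second read 80.6, 94.3 and 120 in SCP51, against 7.70, 10.1 and 7.64 in SCP58 and 9.66, 8.64 and 8.004 in SW480/EGFP. The third read 101, 60.8 and 79.3 in SCP51, against 8.67, 4.91 and 5.21 in SCP58 and 6.55, 8.89 and 8.49 in SW480/EGFP. Their log2 differences from SCP58 were 3.53 and 3.70 (limma adjusted p = 0.000279 and 0.00124 in the fit without a filter). A probe set under the filter read 38.2, 35.7 and 30.0 in SCP51, against 5.38, 3.01 and 2.28 in SCP58 and 3.35, 3.23 and 3.66 in SW480/EGFP. All 4 probe sets thus separated SCP51 from both other lines with no overlap. Without SCP51 replicate 1 the difference of the brightest from SCP58 was 3.74. The sense pseudogene had no probe set of its own.

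**Figure D1:**
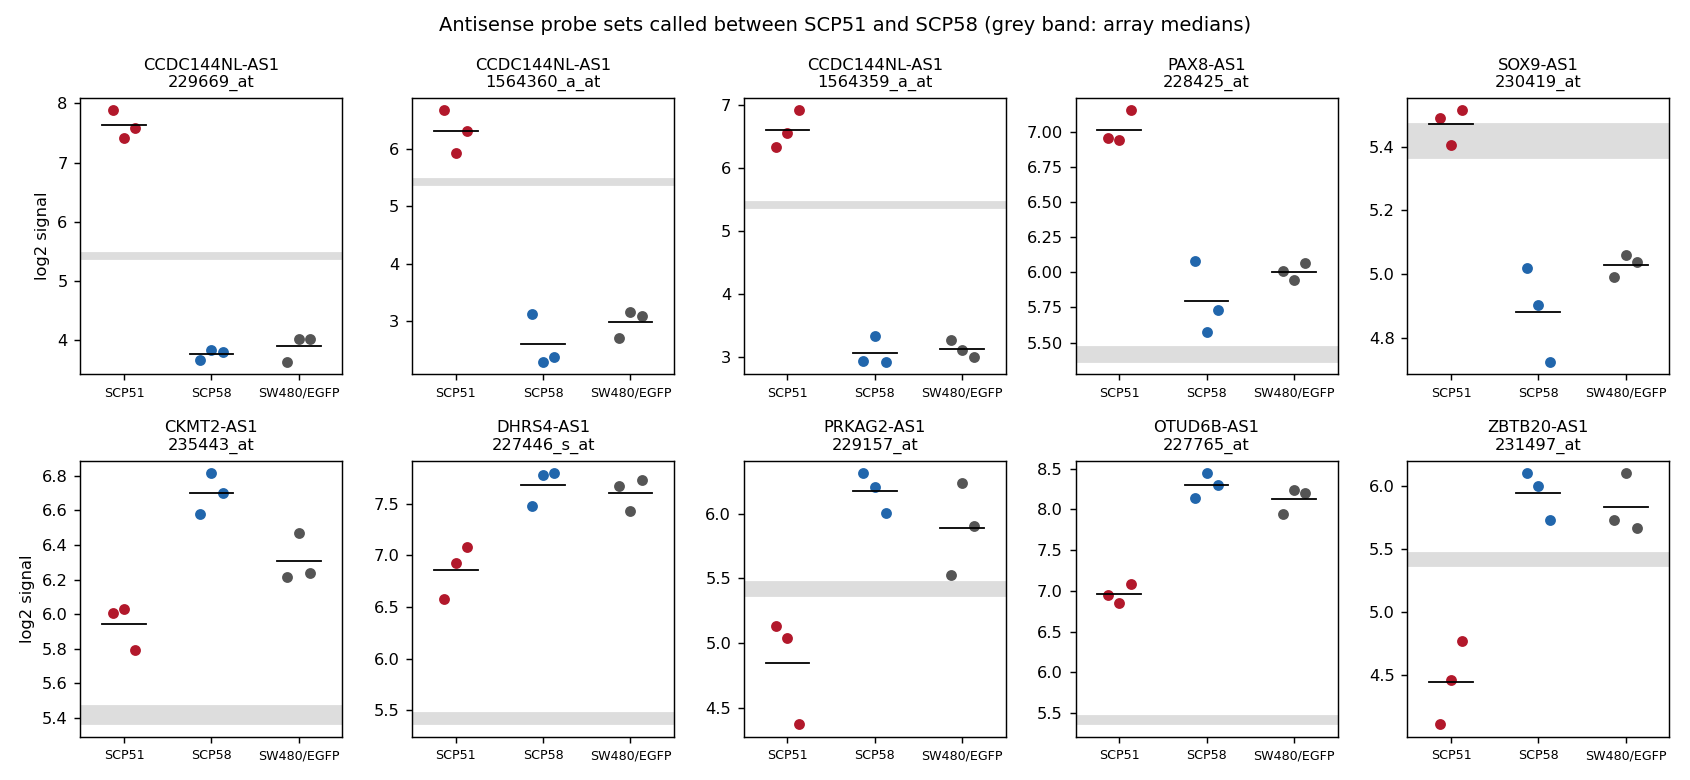
Log2 signal of the 10 antisense probe sets called between SCP51 (red) and SCP58 (blue), with SW480/EGFP (grey); each point is 1 of 3 arrays per group, bars are group means and the grey band spans the medians of the 9 arrays. In CCDC144NL-AS1 the SCP51 arrays stand alone above the band, and in CKMT2-AS1 SW480/EGFP lies between the other groups and overlaps neither.

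PAX8-AS1, on chromosome 2, lies on the strand opposite PAX8, a paired-box transcription factor of thyroid and kidney development. The called probe set read 124, 123 and 142 in SCP51, against 67.5, 47.6 and 53.2 in SCP58 and 64.3, 61.5 and 67.0 in SW480/EGFP. SCP51 was above both groups without overlap, at 1.22 ± 0.14 log2 units from SCP58 (SE of 3 arrays a group; limma adjusted p = 0.00681) and 1.01 ± 0.14 from SW480/EGFP (limma adjusted p = 0.0116). Without SCP51 replicate 1 these were 1.25 and 1.04. The call against SW480/EGFP was lost when any 1 of its 3 arrays was left out, with limma adjusted p from 0.00165 to 0.0604 over 18 alternatives.

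The other probe sets of PAX8-AS1 did not follow. The brightest of the 3 read 128, 240 and 243 in SCP51, against 315, 278 and 278 in SCP58 and 349, 240 and 324 in SW480/EGFP, a difference of -0.57 from SCP58 (limma adjusted p = 0.279). The lowest of these values was again SCP51 replicate 1. The dimmest differed by 0.07 (limma adjusted p = 0.891). The rise was therefore seen in 1 of 3 probe sets of the gene. PAX8 itself read 295, 257 and 288 in SCP51, against 369, 281 and 277 in SCP58, a difference of -0.13 (95% interval -0.46 to 0.20).

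SOX9-AS1, on chromosome 17, is named after SOX9, a transcription factor of intestinal progenitor cells, and the 2 gene bodies do not overlap in RefSeq. Its probe set read 45.0, 42.4 and 45.7 in SCP51, against 32.4, 29.9 and 26.5 in SCP58 and 31.8, 33.4 and 32.8 in SW480/EGFP. The SCP51 arrays were close to the array median and the others under it. The difference from SCP58 was 0.59 ± 0.13 (limma adjusted p = 0.0476 in the fit without a filter, since the probe set had to be high in SCP51 to pass it). This call was lost in 12 of 18 alternatives, among them the omission of any 1 of the 9 arrays. Limma adjusted p ranged from 0.0155 to 0.157 over them. A second probe set, under the filter, read at most 6.13 on any array. SOX9 gave different values by probe set. The brighter read 797, 1614 and 1483 in SCP51, against 1211, 679 and 1100 in SCP58, so the groups overlapped (0.36 ± 0.30). The dimmer read 869.6, 797.4 and 659.0 in SCP51, against 416.9, 229.5 and 323.1 in SCP58 and 386.2, 386.1 and 429.4 in SW480/EGFP. It was called higher than in SCP58 (1.295, limma adjusted p = 0.0214) and not called against SW480/EGFP (0.95, limma adjusted p = 0.0729).

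OTUD6B-AS1, on chromosome 8, is a neighbour of OTUD6B, which encodes a deubiquitinating enzyme. The brighter of 2 probe sets read 123, 115 and 136 in SCP51, against 283, 348 and 314 in SCP58 and 247, 302 and 293 in SW480/EGFP. SCP51 was below both groups with no overlap, at -1.33 ± 0.14 from SCP58 (SE of 3 arrays a group; limma adjusted p = 0.00523) and -1.17 ± 0.14 from SW480/EGFP (limma adjusted p = 0.00576). Both calls held in all 19 alternatives. The dimmer read 48.1, 57.9 and 44.0 in SCP51, against 64.6, 95.1 and 84.2 in SCP58, a difference of -0.69 that was not called (limma adjusted p = 0.0651). OTUD6B read 167, 286 and 297 in SCP51, against 335, 399 and 462 in SCP58 (-0.71 ± 0.28, limma adjusted p = 0.208). Of the 8 members on chromosome 8, 5 lay below 0, among them both OTUD6B-AS1 probe sets, and the median of the 8 was -0.167. Of all 339 members 211 lay below 0 (median -0.0546), a share close to that on chromosome 8. Any part of the chromosome in the result was not tested.

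ZBTB20-AS1, on chromosome 3, lies opposite ZBTB20, a zinc finger repressor of transcription. The probe set of ZBTB20-AS1 read 17.3, 22.01 and 27.3 in SCP51, against 68.7, 64.1 and 53.2 in SCP58 and 53.0, 68.7 and 50.8 in SW480/EGFP. It crossed the array median: the SCP51 arrays were under it and the other 6 above. The differences were -1.50 ± 0.20 from SCP58 and -1.38 ± 0.20 from SW480/EGFP (SE, 3 arrays each; adjusted p by limma 0.0106 and 0.014). The call against SCP58 was lost without SCP58 replicate 2 and in a fit of the 6 arrays alone, and limma adjusted p ran from 0.00264 to 0.0557 over 18 alternatives. The call against SW480/EGFP was lost without SW480/EGFP replicate 1 or 2, with the replicate block and in a fit of the 6 arrays alone (0.00528 to 0.0635).

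The sense gene lay on the other side. ZBTB20 read 329, 597 and 566 in SCP51, against 313, 265 and 292 in SCP58 and 367, 344 and 322 in SW480/EGFP. The difference from SCP58 was 0.73 ± 0.22 and was not called (limma adjusted p = 0.12). All 9 probe sets of ZBTB20 that passed the filter were above 0 in this comparison, from 0.52 to 0.91, and none was called (limma adjusted p 0.0849 to 0.216). SCP51 replicate 1 was the low value. Without it the ZBTB20 difference was 1.01 and the ZBTB20-AS1 difference -1.33, and both were called. The within-array difference of antisense from sense log2 signal averaged -4.46 ± 0.27 in SCP51, -2.23 ± 0.21 in SCP58 and -2.59 ± 0.24 in SW480/EGFP (SD, n = 3), which describes unequal change and no relative abundance. The annotated starts of the 2 genes are 31831 bases apart, on opposite strands.

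PRKAG2-AS1, on chromosome 7, starts 73 bases from PRKAG2, the gene of a regulatory subunit of AMP-activated protein kinase, on the opposite strand. The called probe set of PRKAG2-AS1 read 35.0, 32.9 and 20.7 in SCP51, against 79.5, 73.7 and 64.1 in SCP58 and 46.2, 75.5 and 60.0 in SW480/EGFP. SCP51 lay below SCP58 without overlap, at -1.33 ± 0.24 (limma adjusted p = 0.0268), and at -1.04 ± 0.24 from SW480/EGFP (not called, limma adjusted p = 0.0735). The call was lost in 7 of 19 alternatives, among them leaving out SCP51 replicate 2, SW480/EGFP replicate 3 or any SCP58 array (limma adjusted p 0.00369 to 0.111). Without SCP51 replicate 1 it was -1.47. A dimmer probe set, which failed the filter, read 20.7, 20.5 and 20.8 in SCP51, against 30.1, 36.5 and 31.4 in SCP58. Another did not separate the groups, at 54.4, 48.7 and 46.3 in SCP51, against 52.7, 46.5 and 44.8 in SCP58. PRKAG2 read 807, 495 and 519 in SCP51, against 601, 508 and 513 in SCP58 by its brightest probe set, a difference of 0.13 (95% interval -0.30 to 0.57). Its other 2 probe sets lay below 0, at -0.48 and -0.66, and were not called (limma adjusted p = 0.141 and 0.364).

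DHRS4-AS1, on chromosome 14, starts 427 bases from DHRS4, a carbonyl reductase gene, on the opposite strand. Its probe set, of a type marked as shared by several transcripts, read 95.3, 122 and 135 in SCP51, against 179, 219 and 222 in SCP58 and 203, 172 and 212 in SW480/EGFP. SCP51 was below both groups. The difference from SCP58 was -0.82 ± 0.17 (limma adjusted p = 0.0391) and that from SW480/EGFP -0.75 ± 0.17 (not called, limma adjusted p = 0.0686). The call from SCP58 was lost in 9 of 19 alternatives, among them omission of SCP51 replicate 2, of replicate 2 or 3 of SCP58, or of any SW480/EGFP array (limma adjusted p 0.00866 to 0.155). A second probe set, under the filter, read 20.6, 43.7 and 39.3 in SCP51, against 41.03, 41.96 and 42.3 in SCP58 and 38.2, 44.5 and 33.9 in SW480/EGFP, and its groups overlapped. Its sense gene had no member of its own among probe sets with 1 symbol.

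CKMT2-AS1, on chromosome 5, lies opposite CKMT2, the mitochondrial creatine kinase of striated muscle, which failed the filter. The probe set of CKMT2-AS1 read 64.2, 65.3 and 55.5 in SCP51, against 95.4, 112 and 104 in SCP58 and 74.4, 88.4 and 75.5 in SW480/EGFP. SW480/EGFP lay between the 2 derived lines and overlapped neither. SCP51 differed from SCP58 by -0.75 ± 0.12 (limma adjusted p = 0.0182), and the call was lost when SCP51 replicate 2 or either replicate 2 or 3 of SCP58 was omitted, and in a fit of the 6 arrays alone (limma adjusted p 0.00259 to 0.087 over 19 alternatives). A second probe set, under the filter, read 47.6, 31.7 and 36.7 in SCP51, against 41.5, 30.6 and 25.9 in SCP58 and 48.7, 34.4 and 43.6 in SW480/EGFP, so its groups overlapped and SCP51 was not the lowest.

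Another 14 probe sets separated SCP51 from SCP58 with no overlap and by at least 0.6 log2 units without being called, 13 lower and 1 higher. How many of all probe sets met these limits was not counted. Among members whose groups did not overlap, of any size, 40 were lower and 21 higher. Among all such probe sets 4165 were lower and 2606 higher. The 1 higher member of the 14 was PSMA3-AS1, named after a proteasome subunit gene. It read 165, 218 and 186 in SCP51, against 100, 128 and 139 in SCP58 (0.64 ± 0.16, limma adjusted p = 0.0654), while a second probe set differed by -0.21. The lower ones closest to the threshold were NUTM2B-AS1 (-0.76 ± 0.18, limma adjusted p = 0.0571) and ELFN1-AS1 (-0.70 ± 0.16, limma adjusted p = 0.0586). ELFN1-AS1 read 62.7, 54.7 and 75.5 in SCP51, against 111, 118 and 84.3 in SCP58. The widest gap was in UBAC2-AS1, at 36.5, 24.96 and 36.9 in SCP51, against 105, 73.9 and 77.8 in SCP58 (-1.39 ± 0.38, limma adjusted p = 0.0936).

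In 6 of the 13 lower ones SCP51 replicate 1 was the lowest SCP51 array. PXN-AS1 read 50.7, 135 and 163 in SCP51, against 205, 231 and 178 in SCP58, and its difference of -0.97 was -0.45 without that array. TTC28-AS1 read 53.7, 95.9 and 101 in SCP51, against 169, 129 and 159 in SCP58, at -0.91 with it and -0.62 without it. For GAS6-AS1 and LOXL1-AS1 the differences of -0.74 and -0.70 were -0.32 and -0.38 without it. Groups that did not overlap, of any size, made up 61 of 339 members (18%), against 23.2% of all probe sets.

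SCP51 differed from SW480/EGFP in 6 antisense probe sets of 4 genes, the 3 of CCDC144NL-AS1 and PAX8-AS1 higher, OTUD6B-AS1 and ZBTB20-AS1 lower. All 6 were also called against SCP58, and the comparisons share the SCP51 arrays. They are 1.77% of the members, against 1.89% of all probe sets tested (0.929% higher, 0.963% lower). The 3 of CCDC144NL-AS1 had to differ to be members and support nothing. Among the 335 members not above the median in 1 group alone 3 were called (0.896%). The share of all probe sets was not trimmed in this way. At least 2-fold apart were 12 members, against 3.76% of all probe sets. The median difference was -0.0917 over the members and -0.0761 over all, and 88 members (26%) did not overlap between groups, against 26.1% of all. The differences from SW480/EGFP were 3.74, 3.47 and 3.32 for the probe sets of CCDC144NL-AS1.

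FAS-AS1, on chromosome 10, lies opposite FAS, the gene of a death receptor, and was just short of the threshold. The probe set of FAS-AS1 read 49.5, 55.5 and 52.6 in SCP51, against 79.2, 63.6 and 61.2 in SCP58 and 91.1, 80.6 and 75.1 in SW480/EGFP. The SCP51 arrays were below all others, at -0.64 ± 0.13 from SW480/EGFP (limma adjusted p = 0.0523, and 0.0222 to 0.184 over 19 alternatives). FAS read 270, 306 and 302 in SCP51, against 262, 322 and 319 in SCP58 and 183, 195 and 194 in SW480/EGFP. It lay above SW480/EGFP by 0.62 ± 0.13 in SCP51 (limma adjusted p = 0.055) and 0.65 ± 0.13 in SCP58 (limma adjusted p = 0.157), and all 4 probe sets of FAS were above 0 in both. Neither gene was called. Both were called, with opposite signs, when 1 probe set per gene was tested, with array weights, or without SCP58 replicate 1.

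Among members not called but apart from SW480/EGFP without overlap by at least 0.6 log2 units, 11 were lower, FAS-AS1 among them, and 1 higher. How many of all probe sets met these limits was not counted. Of the members whose groups did not overlap, of any size, 70 were lower and 18 higher. Of all such probe sets 4797 were lower and 2808 higher. PRR34-AS1 read 59.2, 186 and 340 in SCP51, against 466, 450 and 495 in SW480/EGFP (-1.60 ± 0.55, limma adjusted p = 0.194), and the difference was -0.90 without SCP51 replicate 1. The 1 higher member was SPAG5-AS1, which read 209, 45.8 and 46.7 in SCP51, against 33.8, 44.0 and 42.1 in SW480/EGFP. Its difference of 0.94 rested on SCP51 replicate 1 and was 0.22 without it. In 7 of the 11 lower ones that array was the lowest of SCP51.

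SCP58 and SW480/EGFP differed in 0 antisense probe sets by limma, against 0.134% of all probe sets tested (0.0514% higher, 0.0823% lower). The smallest limma adjusted p of a member was 0.28. An unadjusted limma p under 0.05 was found for 17 members (5.01%), against 8.45% of all probe sets. With array weights 23 were called, where 10.5% of all probe sets were. Of the members 319 (94.1%) differed by less than 0.5 log2 units, and 38 (11.2%) did not overlap, against 16.3% of all. At least 2-fold apart were 6 members, against 1.49% of all probe sets. Only RPS6KA2-AS1 and TSKU-AS1 were apart by at least 0.6. RPS6KA2-AS1 read 27.2, 57.8 and 56.4 in SCP58, against 15.4, 15.3 and 19.7 in SW480/EGFP (1.42 ± 0.52, limma adjusted p = 0.498). TSKU-AS1 read 19.6, 17.8 and 16.2 in SCP58, against 49.3, 30.8 and 51.2 in SW480/EGFP (-1.26 ± 0.33, limma adjusted p = 0.306). In RPS6KA2-AS1 the SCP51 arrays spanned both groups, at 55.8, 13.6 and 17.1.

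The sense gene of the same name was measured for 213 of the 285 antisense genes, which gave 256 antisense probe sets beside a sense probe set, the brightest of its gene. RefSeq named 282 of the 285 sense genes, 277 as protein coding. The bodies of 240 of 279 placed gene pairs overlapped. All 191 pairs with both strands known lay on opposite strands, 90 with starts at most 1000 bases apart.

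Across all pairs, antisense and sense differences showed almost no correlation. The median size of a difference between SCP51 and SCP58 was 0.16 for antisense and 0.219 for sense. With differences this small, a low r does not show that the transcripts change independently. Between SCP51 and SCP58 the 2 had the same sign in 129 pairs and opposite signs in 127, with Pearson's r of -0.011 and Spearman's rho of -0.089 across the 256 pairs. Against SW480/EGFP r was -0.014 for SCP51 and 0.052 for SCP58. Among the 91 pairs with starts at most 1000 bases apart r was -0.025, -0.1 and 0.13 in the 3 comparisons, and rho -0.13, -0.12 and 0.18. Among the 85 farther apart r was -0.19, -0.096 and -0.049, and rho -0.25, -0.12 and 0.0034. The remaining pairs had no known distance between starts. These values describe pairs that share the same 9 arrays, and some sense genes enter more than once. With the sense gene read from its brightest probe set, both were called in no pair of the 3 comparisons. When any probe set of the sense gene could be called, a choice made after seeing the data, 1 pair had both called, SOX9-AS1 and SOX9, higher in SCP51 than in SCP58. SOX9-AS1 had to be high in SCP51 to be a member, so this pair supports nothing.

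**Figure D2:**
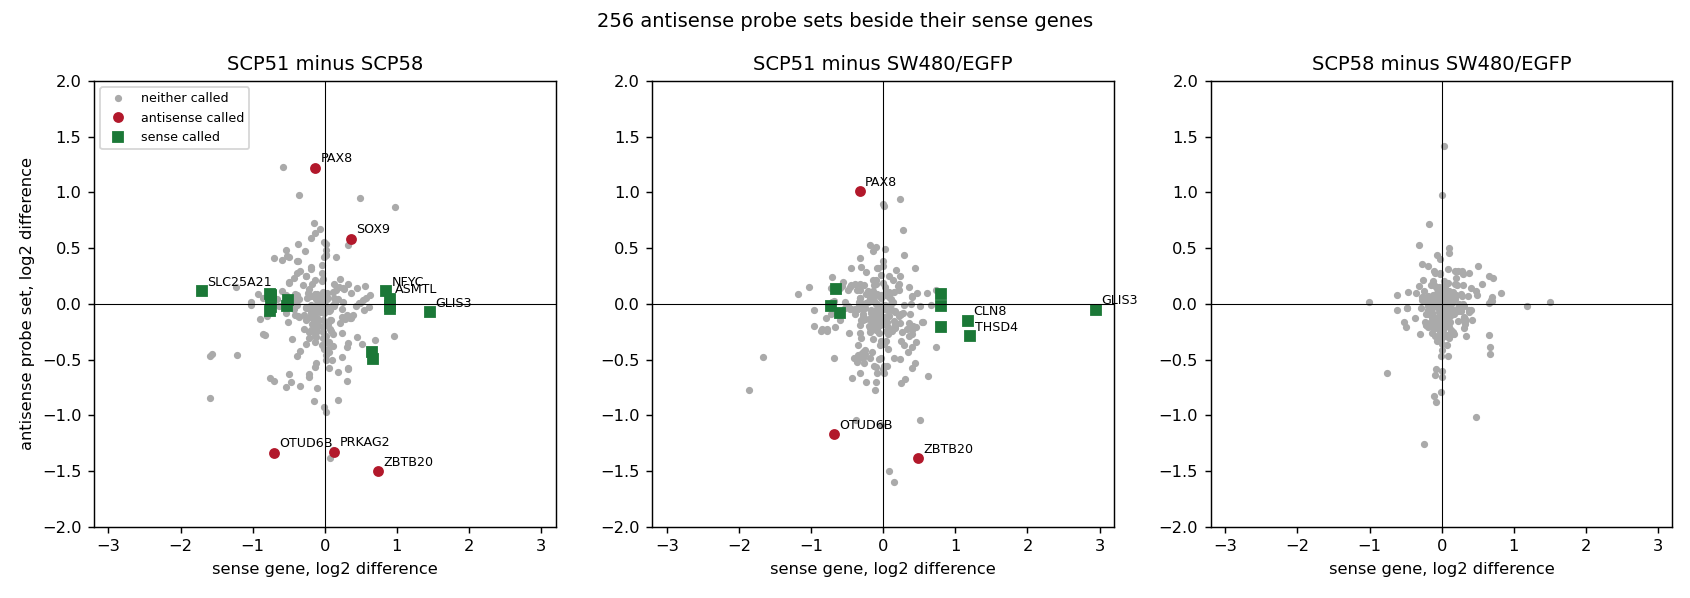
Log2 difference of each antisense probe set (vertical axis) against that of its sense gene (horizontal axis) in the 3 comparisons, for 256 pairs; red points have the antisense probe set called, green squares the sense gene, and labels give the sense symbol. With the brightest sense probe set no pair is marked as called on both sides, and ZBTB20 is the called antisense probe set farthest into the quadrant of opposite signs.

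**Figure D3:**
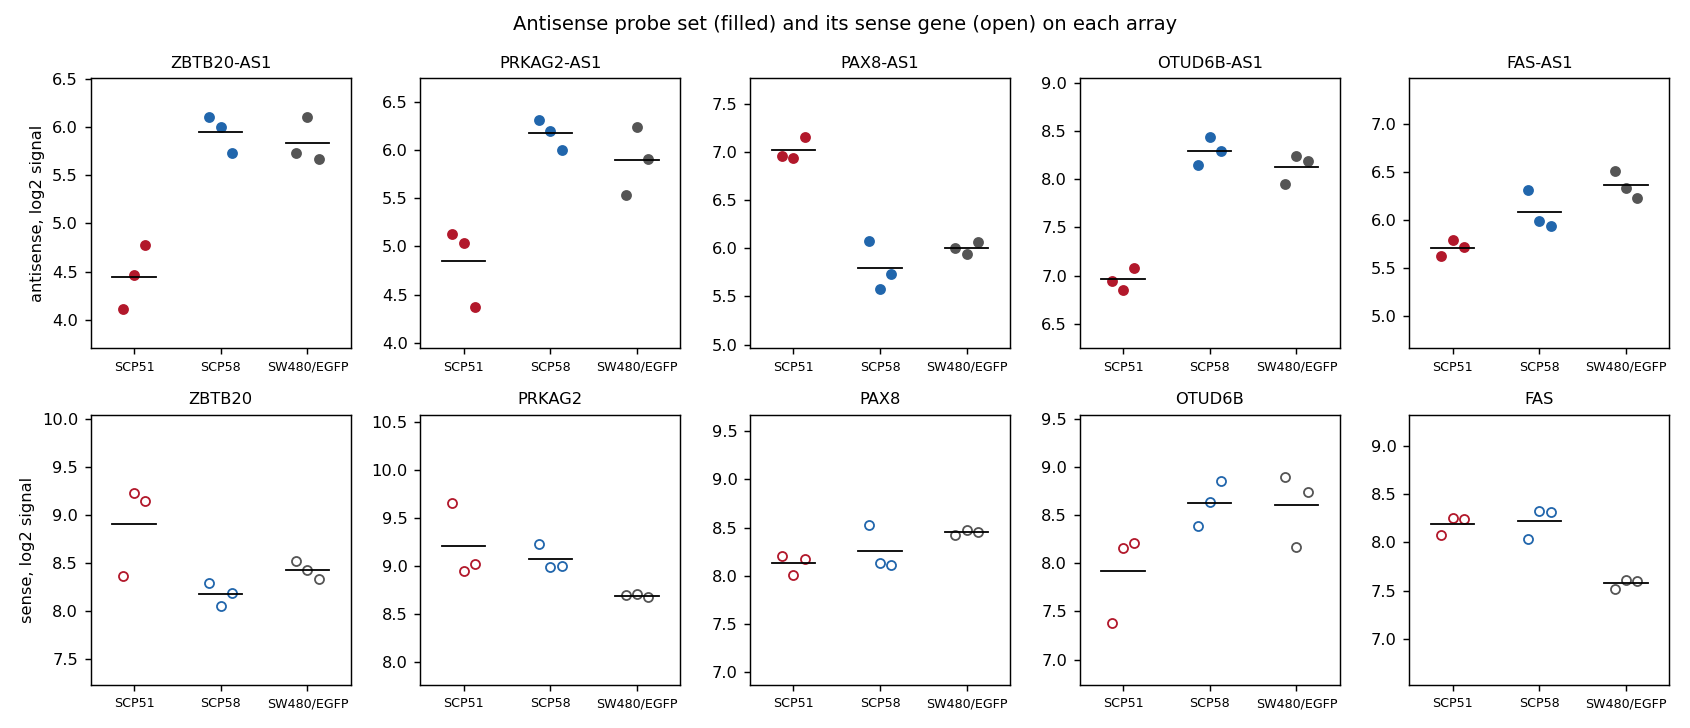
Log2 signal on each of 3 arrays per group for 5 antisense probe sets (filled, above) and their sense genes (open, below), with group means as bars; each column spans the same number of log2 units above and below. ZBTB20-AS1 is low where ZBTB20 is high in SCP51, apart from 1 SCP51 array, and FAS is lowest in SW480/EGFP, where FAS-AS1 is highest.

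Where a sense gene was called by its brightest probe set, its antisense partner lay within 0.5 of 0, as most members did. Of all members 83.5% differed by less than 0.5 between SCP51 and SCP58, and 86.1% between SCP51 and SW480/EGFP. Between SCP51 and SCP58 12 of 213 sense genes were called (5.63%, against 3.62% of protein-coding genes), and the 15 antisense probe sets beside them differed by -0.50 to 0.12, none called. SLC25A21, the gene of a mitochondrial carrier of oxodicarboxylates, read 30.2, 24.2 and 20.3 in SCP51, against 56.2, 93.6 and 97.9 in SCP58 (-1.71 ± 0.25, limma adjusted p = 0.0127). SLC25A21-AS1, which starts 580 bases from it, read 59.4, 38.2 and 43.4 in SCP51, against 50.9, 42.3 and 36.2 in SCP58, so its groups overlapped (0.11, 95% interval -0.33 to 0.56). GLIS3, a zinc finger transcription factor gene, read 158, 164 and 139 in SCP51, against 50.8, 58.6 and 58.5 in SCP58 and 13.5, 29.9 and 19.05 in SW480/EGFP, called at 1.45 from SCP58 and 2.95 from SW480/EGFP. GLIS3-AS1 read 90.04, 78.4 and 96.8 in SCP51, against 97.7, 89.96 and 90.7 in SCP58 and 77.1, 116 and 85.1 in SW480/EGFP, and did not separate the lines.

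Others repeated this. ASMTL was higher in SCP51 than in SCP58 (0.90, limma adjusted p = 0.00541), while its 3 antisense probe sets differed by -0.04 to 0.05. NFYC, a subunit gene of a CCAAT-binding factor, was higher (0.85) with NFYC-AS1 at 0.12, and OVOL1, an epithelial zinc finger factor gene, was lower (-0.76) with OVOL1-AS1 at 0.09. FAM13A (-0.76), CCDC18 (-0.75), ZBED3 (-0.74), CIRBP (-0.52) and MYLK (-0.50) were also lower, and CLN8 (0.67) and YWHAH (0.65) higher. Of the 12 sense genes 5 had probe sets of both signs. CIRBP, CLN8 and FAM13A each had 3 of 5 above 0, and the second probe set of OVOL1 was at 0.00. The dimmer MYLK probe set lay above SCP58 by 0.67 (limma adjusted p = 0.0711), and above SW480/EGFP by 1.17 (limma adjusted p = 0.0122), where the brighter was at -0.60 (limma adjusted p = 0.0191). The antisense probe sets farthest from 0 in this group were CLN8-AS1 (-0.50) and YWHAH-AS1 (-0.43), both opposite in sign to their sense genes and neither called. Against SW480/EGFP 7 sense genes were called in SCP51 (3.29%, against 2.29% of protein-coding genes) and none in SCP58 (0.137% of protein-coding genes).

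Probe sets of the same antisense gene often differed in sign, and how often those of other genes did was not counted. Of 38 genes with at least 2 member probe sets, 21 had both signs between SCP51 and SCP58, and in 4 the probe sets lay more than 1 log2 unit apart. These were PAX8-AS1 (1.79 apart), PRKAG2-AS1 (1.38), EPB41L4A-AS1 (1.23) and GABPB1-AS1 (1.11). GABPB1-AS1, named after a subunit gene of an ETS-family factor, had 4 probe sets. The lowest read 193, 148 and 184 in SCP51, against 228, 287 and 270 in SCP58 (-0.58), and the highest read 60.7, 78.6 and 76.7 in SCP51, against 60.7, 46.8 and 43.3 in SCP58 (0.52). Neither was called. The 3 member probe sets of CCDC144NL-AS1, by contrast, lay within 0.34 of each other.

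**Figure D4:**
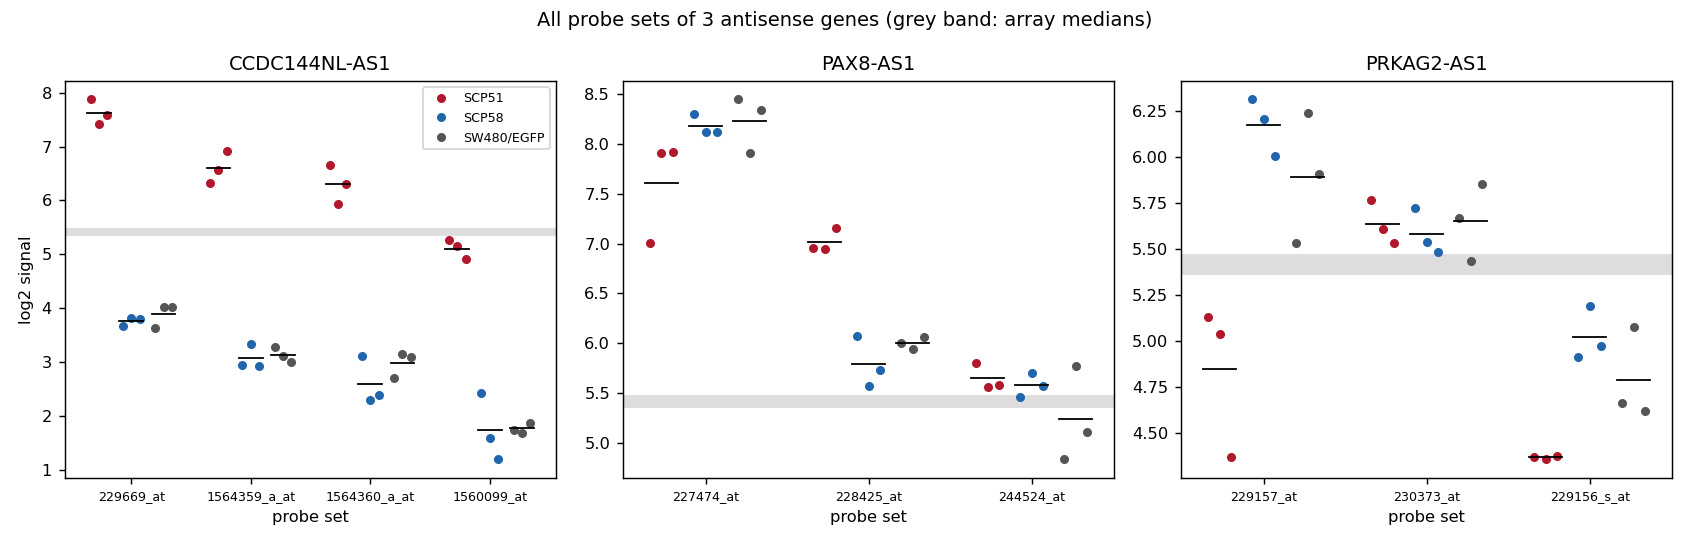
Log2 signal of every probe set of CCDC144NL-AS1, PAX8-AS1 and PRKAG2-AS1 on 3 arrays per group, with group means as bars and the array medians as a grey band. All 4 probe sets of CCDC144NL-AS1 place SCP51 on top, whereas 1 of 3 does for PAX8-AS1, and for PRKAG2-AS1 the middle probe set shows no gap.

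None of the 6 brightest antisense probe sets was called in any comparison. They were, in order of mean log2 signal, EPB41L4A-AS1, THAP9-AS1, FGD5-AS1, OIP5-AS1, KRT10-AS1 and PRR34-AS1, an order of signals that need not be one of transcript levels. EPB41L4A-AS1 read 538, 1266 and 1585 in SCP51, against 1403, 2289 and 1574 in SCP58 and 1112, 1960 and 1267 in SW480/EGFP. THAP9-AS1 read 979, 1057 and 938 in SCP51, against 802, 1038 and 978 in SCP58. OIP5-AS1, known to bind the RNA-binding protein HuR in human cells, read 631, 413 and 466 in SCP51, against 448, 382 and 400 in SCP58. SCP51 and SCP58 overlapped in all of these. FGD5-AS1 differed by -0.02 between SCP51 and SCP58 (95% interval -0.31 to 0.27) and KRT10-AS1 by -0.05 (-0.47 to 0.37).

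A few members jumped between replicates. Of the 339, 20 (5.9%) had an SD above 1 log2 unit in at least 1 group, against 6.53% of all probe sets, and ATP6V0E2-AS1 and CELF2-AS1 had one above 2. ATP6V0E2-AS1 read 1558, 21.6 and 21.3 in SCP51, against 1345, 23.3 and 18.96 in SCP58 and 23.5, 17.3 and 1583 in SW480/EGFP. CELF2-AS1 read 723, 21.2 and 580 in SCP51, against 29.7, 25.3 and 25.6 in SCP58 and 25.4, 27.7 and 624 in SW480/EGFP. Values of ATP6V0E2-AS1 fell into a high and a low state in every group, so its line averages describe no line.

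**Figure D5:**
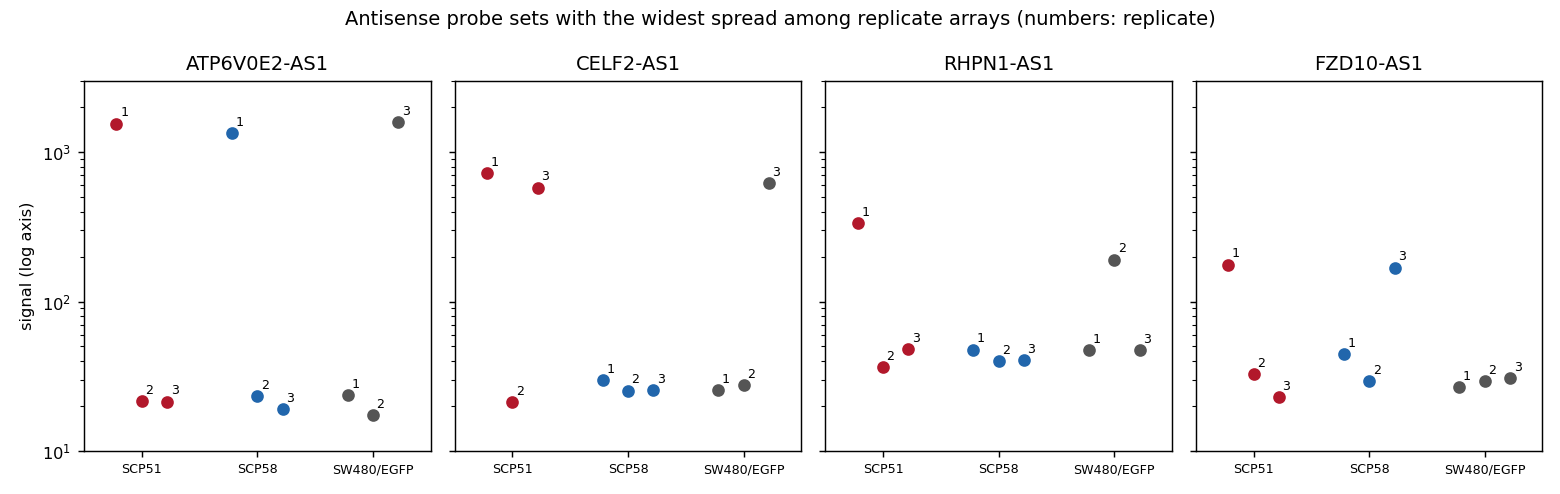
Signal on a log axis for 4 antisense probe sets with wide replicate spread; each point is 1 array, numbered by replicate within SCP51, SCP58 and SW480/EGFP. The high values of ATP6V0E2-AS1 come from 1 array of each group, so the spread lies within the lines.

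Of 36 other long noncoding RNA genes listed for comparison 13 were measured and 0 were called by limma in any comparison. An unadjusted limma p under 0.05 was found for 1 between SCP51 and SCP58. It was found for 4 between SCP51 and SW480/EGFP and for 1 between SCP58 and SW480/EGFP. Of all probe sets 19.5%, 17.5% and 8.45% had such a p in the same 3 comparisons. Of 23 genes for nuclear RNA decay, which limits many antisense transcripts, 22 were measured. EXOSC6, a subunit of the RNA exosome, was the 1 called, at 349, 423 and 406 in SCP51, against 202, 145 and 151 in SCP58 (1.25 ± 0.16, limma adjusted p = 0.00894). Of all probe sets 3.35% were called in that comparison, so 1 call among 22 genes is near that share. The median difference of the 22 was -0.115, with 8 above 0. The part of EXOSC6 in any antisense difference was not tested.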

How the data were processed

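The authors deposited 1 linear intensity per probe set and array. The submitters' processing notes name GCOS 1.4, and how it scaled, corrected and summarised the probes is not given there. The labels' protocols describe oligo-dT priming and biotin labelling during in vitro transcription, so transcripts without a poly(A) tail are underrepresented. Probe sequences were not used here, so the strand that each probe reads was not checked.

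From these intensities, 514 values under 1 were raised to 1 before log2, without rescaling the arrays, and 62 of the 54675 probe sets, the controls, were left out. Probe sets above the array median on at least 3 of the 9 arrays were kept, which gave 29166. Each was tested by itself with limma 3.58.1 in R 4.3.3, with 1 mean per group over all 9 arrays and an intensity trend in the moderated variance. The fit was tested on simulated data. The number of arrays limits the precision.

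Names came from the platform annotation, and symbols matched RefSeq for 99.9% of named probe sets. The sense gene is the symbol without -AS1, read from its brightest probe set with 1 symbol. Named are members called, members apart by at least 0.6 log2 units without overlap, the 6 brightest, members whose sense gene was called, members with probe sets of both signs and those at the filter's edge. Some of these are given by count only, and members of wide spread were chosen after their values were seen. The members, lists and rule were chosen with earlier results of these data known. Alternatives were no filter or the 65th percentile, quantile normalization, centring on the 75th percentile, 32 added before log2, no trend, array weights, 1 probe set per gene, the mean of the sense gene's probe sets, a fit to just the 6 arrays of a comparison, a block for the replicate number, leaving out each array and, added later, any probe set of the sense gene. Figures were drawn with matplotlib 3.10.9.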

Additional observations from a re-analysis of the deposited data

Results flagged for a closer look

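CKMT2-AS1 stood out because its difference from SW480/EGFP ran in opposite directions in the 2 derived lines. SCP51 lay below SW480/EGFP on every array (-0.36, limma adjusted p = 0.181) and SCP58 above it on every array (0.39, limma adjusted p = 0.405). The difference between SCP51 and SCP58 was -0.754 (limma adjusted p = 0.0182). That difference leaves SW480/EGFP out, so it does not test whether the 2 derived lines moved in opposite directions from SW480/EGFP. Neither difference from SW480/EGFP was called, and both share the SW480/EGFP arrays. A second probe set of the gene, under the filter, did not show this: it read 47.6, 31.7 and 36.7 in SCP51, 41.5, 30.6 and 25.9 in SCP58, and 48.7, 34.4 and 43.6 in SW480/EGFP, with all groups overlapping.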

How the results depend on the processing

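Members called, or apart by at least 0.6 log2 units without overlap, kept their sign under every alternative run for them. The signs of other members named above were not followed in this way. The median over the members between SCP51 and SCP58, -0.0546, became -0.0141 with quantile normalization and 0.00918 with centring on the 75th percentile. Between SCP51 and SCP58 the count of called antisense probe sets was 10, and array weights gave 27 (with 11.6% of all probe sets called), a fit of the 6 arrays alone 5 (0.511%), the replicate block 7 (1.35%), and leaving out each array 5 to 16 (0.614% to 6.78%). Against SW480/EGFP the count for SCP51 was 6, and it was 20 with array weights (8.05%), 5 with the replicate block (0.775%) and 4 to 7 when each array was left out (0.576% to 3.52%). For SCP58 it was 0, and 23 with array weights, where 10.5% of all probe sets were called. It was 0 with the replicate block and with each array left out. Pairs with both the antisense probe set and the sense gene called were 0. For SCP51 against SCP58 this became 1 with quantile normalization, 1 with array weights, 1 when any probe set of the sense gene could be called, which was chosen after seeing the data, and 0 to 1 when each array was left out. The pair under that later choice was SOX9-AS1 and SOX9, and SOX9-AS1 had to be high in SCP51 to be a member. For SCP51 against SW480/EGFP the count of pairs became 2 with array weights, 1 with 1 probe set per gene and 0 to 1 when each array was left out, and for SCP58 against SW480/EGFP 1 with array weights. The cause of these changes was not tested, except that fits of 6 arrays have fewer samples. Members above 0 between SCP51 and SCP58 numbered 128, but 159 after quantile normalization and 174 after centring on the 75th percentile, so the sign of small differences depends on the scaling. Raising the filter to the 65th percentile left 147 members. Equal replicate numbers did not pair the arrays: deviations from the group means correlated at 0.039, 0.065 and -0.22 between SCP51 and SCP58, at -0.07, 0.068 and -0.01 between SCP51 and SW480/EGFP, and at 0.026, 0.12 and -0.049 between SCP58 and SW480/EGFP. Signals near the array median limit what can be read here.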

Other observations

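Among other long noncoding RNAs named after a gene, divergent transcripts were called between SCP51 and SCP58 at a share near that of all probe sets. Between SCP51 and SW480/EGFP 1 of 99 divergent transcript probe sets was called (1.01%, against 1.89% of all). Of 27 probe sets ending in -AS2 or a higher number and 10 of intronic transcripts, 0 were called in any comparison. NSMCE1-DT, a divergent transcript on chromosome 16, read 15.4, 18.0 and 18.4 in SCP51, against 63.9, 56.2 and 56.8 in SCP58 and 83.9, 54.4 and 68.1 in SW480/EGFP. It was lower in SCP51 by both comparisons, at -1.78 from SCP58 (limma adjusted p = 0.00505) and -1.98 from SW480/EGFP (limma adjusted p = 0.00127). PAXIP1-DT, MAP3K2-DT and UBL7-DT were also lower than in SCP58, at -0.66, -0.74 and -0.95, so that 4 of 99 divergent transcript probe sets were called (4.04%, against 3.35% of all). MAP3K2-DT passed the filter through SCP58 alone, at 27.4, 28.6 and 38.0 in SCP51, against 57.3, 48.3 and 49.5 in SCP58.

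Of 268 probe sets for intergenic noncoding RNAs 4 were called between SCP51 and SCP58 (1.49%). LINC00326 (0.86) and LINC02901 (0.99) were higher in SCP51, and LINC00689 (-0.87) and LINC02086 (-0.65) were lower. LINC00689 was also lower than in SW480/EGFP (-0.82), and LINC00973 was higher than there (1.32), at 53.6, 65.7 and 59.2 in SCP51, against 19.1, 30.9 and 22.9 in SW480/EGFP. LINC02901 and LINC00973 passed the filter through SCP51 alone, so they had to be higher there. Without the filter on dim probe sets INTS6-AS1, an antisense gene of chromosome 13, was lower in SCP51 than in SCP58 (-0.70, limma adjusted p = 0.0349 in that fit).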
